A study of Mus musculus with 4 samples.

Results

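This account covers the cyclin-dependent kinase (CDK) inhibitors of the Cip/Kip and INK4 families, the D-type cyclins and their kinase Cdk4, measured by RNA sequencing in mouse macrophages. The 10 genes are the inhibitors Cdkn1a, Cdkn1b, Cdkn1c, Cdkn2b, Cdkn2c and Cdkn2d, the cyclins Ccnd1, Ccnd2 and Ccnd3, and Cdk4. They were chosen by gene symbol, with their differences between the 2 groups already known, and all 10 were among the 11111 genes measured. Their differences are therefore given as a description, with no test. The gene lists set beside them below were also chosen with earlier results of these data known. The share of each list that was called is a description too.

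Macrophages were grown from bone marrow of wild-type C57BL/6 mice for 7 days, with new medium on day 4. All cells received a morpholino, a synthetic antisense oligomer, at 2 µM with the delivery reagent Endoporter at 6 µl/ml, for 24 hours. All were then given lipopolysaccharide (LPS), a bacterial cell wall component, at 10 ng/ml for 4 hours. One group received the control morpholino (Ctrl MO) and the other morpholinos that target Regnase-1 (Reg1-MOs), an RNase that degrades inflammatory mRNAs. There were 2 libraries in each group. Where 1 library is left out below, its group keeps 1 library, and the spread then comes from the other group alone. Calls that ended or began in such fits describe those fits and do not measure replication. No label says whether the replicates were separate mice or cultures, so p-values speak only of how far these libraries spread, which may be technical. MO1 and MO2 name both the Reg1-MOs columns and the targeting morpholinos themselves, and whether each library received 1 of them or both is not settled. No library without LPS or without a morpholino enters, so the effect of either cannot be read here.

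D cyclins are made when cells receive growth signals, in macrophages chiefly colony-stimulating factor 1, and they activate CDK4 and CDK6. These kinases phosphorylate the retinoblastoma protein, which frees E2F factors and lets a cell pass from G1 into S phase. INK4 proteins bind CDK4 and CDK6 and keep D cyclins away, while Cip/Kip proteins bind whole cyclin-CDK complexes and stop above all those of CDK2. Macrophages given LPS are known to leave the cell cycle.

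The libraries held 23369753 to 25213695 reads in the table. Zc3h12a, the Regnase-1 gene, had 3407 and 3572 reads in the controls, against 7799 and 6753 with Reg1-MOs, and it rose 2.14-fold (log2 1.10, SE 0.07; limma adjusted p = 4.008e-04). The labels do not say whether the morpholinos were meant to raise or lower it, so Reg1-MOs is used here as a name only and not as a knockdown. All 12 macrophage markers were measured, at 391630 to 462551 summed reads per library, and 1 of them rose and 2 fell, with a median log2 difference of -0.07. Markers of some other cells were sparse, with 1 of 9 measured for dendritic cells, for lymphocytes 1 of 9, for erythroid cells 1 of 7 and for mast cells and basophils 2 of 7. The mast cell and basophil genes Kit and Hdc both fell, and the dendritic cell gene Ly75 rose by 0.84 (SE 0.22, adjusted p = 0.0472), with 65 and 75 reads against 103 and 144. For neutrophils 8 of 9 were measured (5945 to 9003 summed reads) and for myeloid progenitors 6 of 9 (700 to 931). No neutrophil marker was called (median log2 difference -0.27), and 1 myeloid progenitor marker fell (median 0.03). The 10 of 12 stromal and fibroblast markers measured summed to 4559 and 4641 reads in the controls, against 1831 and 1858 with Reg1-MOs. All 10 of these fell, with a median log2 difference of -1.50, and none of the measured markers of any type stood at 0 reads in every library. The part of stromal cells in the differences of other genes below was not tested.

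Among the inhibitors, p57's gene Cdkn1c was 7.25-fold higher and Cdkn2b 2.91-fold higher with Reg1-MOs, and among the cyclins Ccnd2 was 2.20-fold lower and Ccnd3 1.81-fold lower. The other 6 genes differed by at most 1.19-fold. Cdkn1a, by far the most abundant of the 10, had a log2 difference of -0.0016. The fit across all genes called 2 of the 10 higher and 2 lower at an adjusted p of 0.05, where it called 12.2% of all genes, 6.22% higher and 6.03% lower. The libraries of the groups did not overlap for 6 of the 10, against 58.9% of all genes. Since the genes were chosen with this contrast known, nothing is read from these counts. The median log2 difference of the 10 was -0.06, and that of all genes -0.03.

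**Figure D1:**
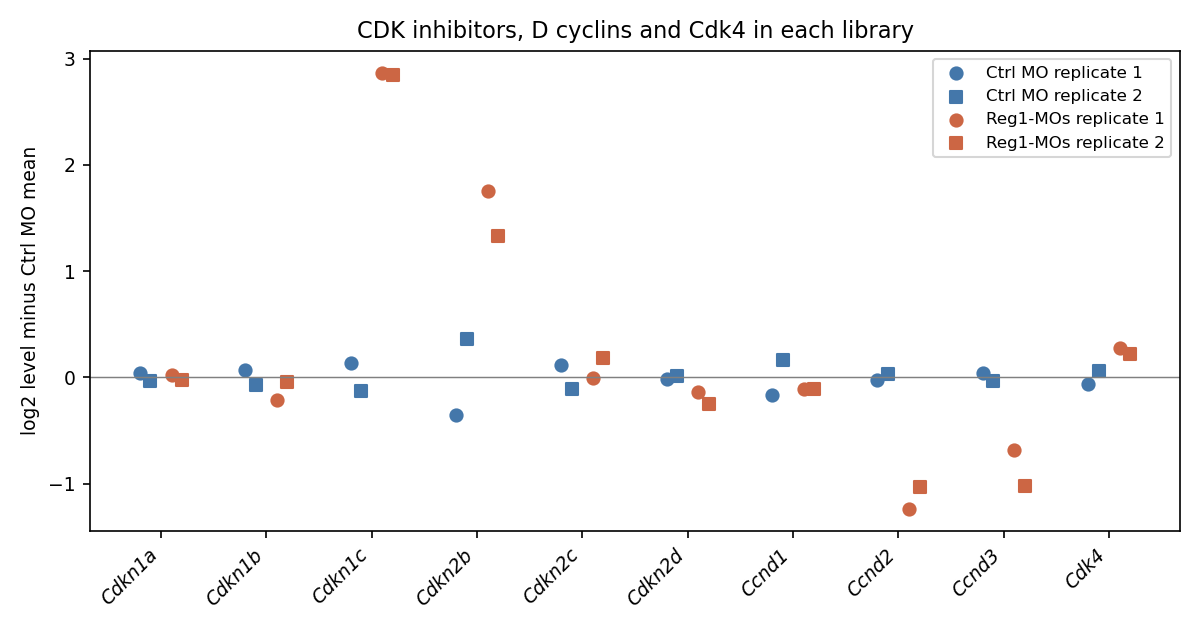
Log2 level of each of the 10 genes in each library, less the mean of that gene over the 2 Ctrl MO libraries (circles, replicate 1; squares, replicate 2). Cdkn1c and Cdkn2b lie above and Ccnd2 and Ccnd3 below all control points, while the other 6 genes lie near the control mean in both Reg1-MOs libraries.

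Cdkn1a encodes p21, the Cip/Kip inhibitor best known as a target of the tumour suppressor p53. It lies on chromosome 17 (29090976 to 29100727, plus strand; positions throughout are those of GENCODE M21 on GRCm38). It had 111025 and 105326 Ctrl MO reads, set against 111866 and 98781 with Reg1-MOs. The groups overlapped, and the log2 difference was -0.0016 (SE 0.07), with either sign among the settings tried (-0.04 to 0.04). This 1 gene took 0.418% to 0.454% of all reads. Cdkn1a shares 1046 bp with AC167363.2 on the opposite strand, which was not among the measured genes, and the strand setting of the counting is not given. All sequences below are RefSeq's, read 5′ to 3′ on the gene's strand. The stretch before its upstream start (chr17:29090729-29090978, plus strand) is shown because it holds a match to the p53 consensus element, in capitals. At most 1 of the 20 letters was allowed to differ, and 0.067% of all 32851 promoter windows held such a match, of 250 bases before to 50 after a start. The p53 element too was added to the motifs after the windows were seen, and nothing is read from its share.

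Cdkn1a: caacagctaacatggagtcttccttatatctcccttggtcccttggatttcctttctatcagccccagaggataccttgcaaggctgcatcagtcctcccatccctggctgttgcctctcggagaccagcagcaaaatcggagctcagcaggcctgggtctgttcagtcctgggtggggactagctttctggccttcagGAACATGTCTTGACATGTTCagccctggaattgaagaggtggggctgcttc

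Of 17 measured p53 targets other than Cdkn1a, 3 rose and 1 fell (limma, adjusted p under 0.05), with a median log2 difference of -0.04. The calls were 23.5% of the list, against 12.2% of all genes. The p53 ubiquitin ligase gene Mdm2 rose by 0.74 (SE 0.07, adjusted p = 0.0015), the polo-like kinase gene Plk2 by 0.63 (SE 0.06, adjusted p = 0.0019) and the growth arrest gene Gadd45a by 0.39 (SE 0.09, adjusted p = 0.0346). Bbc3, encoding the cell death protein PUMA, fell by 0.41 (SE 0.10, adjusted p = 0.0400). The calls of Gadd45a and Bbc3 ended without any 1 of the 4 libraries (adjusted p up to 0.207 and 0.1999), so 2 rises were left in each case. Without Reg1-MOs replicate 2, 2 targets other than Bbc3 were called lower, and 0 targets were called lower when any other library was dropped.

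Cdkn1b encodes p27, a Cip/Kip inhibitor that is high in resting cells (chromosome 6, 134920401 to 134925513, plus strand). It had 642 and 582 reads in the controls, against 537 and 554 with Reg1-MOs. The groups overlapped, at a log2 difference of -0.13 (SE 0.10), and the range over the settings tried was -0.21 to -0.04.

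Cdkn1c encodes p57, the third Cip/Kip protein, and is an imprinted gene expressed from the maternal copy (chromosome 7, 143458339 to 143461050, minus strand). It had 342 and 285 Ctrl MO reads, set against 2321 and 2094 with Reg1-MOs. Both Reg1-MOs libraries were far above both controls, and they differed from each other by 0.02 on the log2 scale, while the controls differed by 0.26. The log2 difference was 2.86 (SE 0.10), and it ran from 2.73 to 2.99 over the settings tried. The nearest libraries of the 2 groups were 2.71 apart. An unnamed gene model, Gm44732, lies on the opposite strand over 892 bp of Cdkn1c, and the sources used here do not give the strand setting of the counting.

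The 6 measured genes within 200000 bp of Cdkn1c differed far less than it did. Cdkn1c had the largest difference of all members, so nothing is read from that gap. Slc22a18, a transporter gene 12686 bp away and in the same imprinted cluster, stood at 0.48 (SE 0.14, adjusted p = 0.0711). Kcnq1ot1, the long noncoding RNA that silences the cluster on the paternal copy, had 55 and 90 reads against 95 and 79 and stood at 0.34 (SE 0.24, adjusted p = 0.389). Nap1l4, a histone chaperone gene, stood at -0.02 (SE 0.07, adjusted p = 0.893), the cysteine tRNA synthetase gene Cars at 0.25 (SE 0.07, adjusted p = 0.0539) and Tnfrsf22, a TNF receptor family gene, at 0.80 (SE 0.45, adjusted p = 0.280). Tnfrsf26, another TNF receptor family gene 146609 bp away, had 39 and 28 reads against 61 and 83 and rose by 1.13 (SE 0.26, limma adjusted p = 0.0326). Its call ended without either Reg1-MOs library (adjusted p up to 0.1196), and Kcnq1ot1 ran from -0.02 to 0.69 over the settings.

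**Figure D2:**
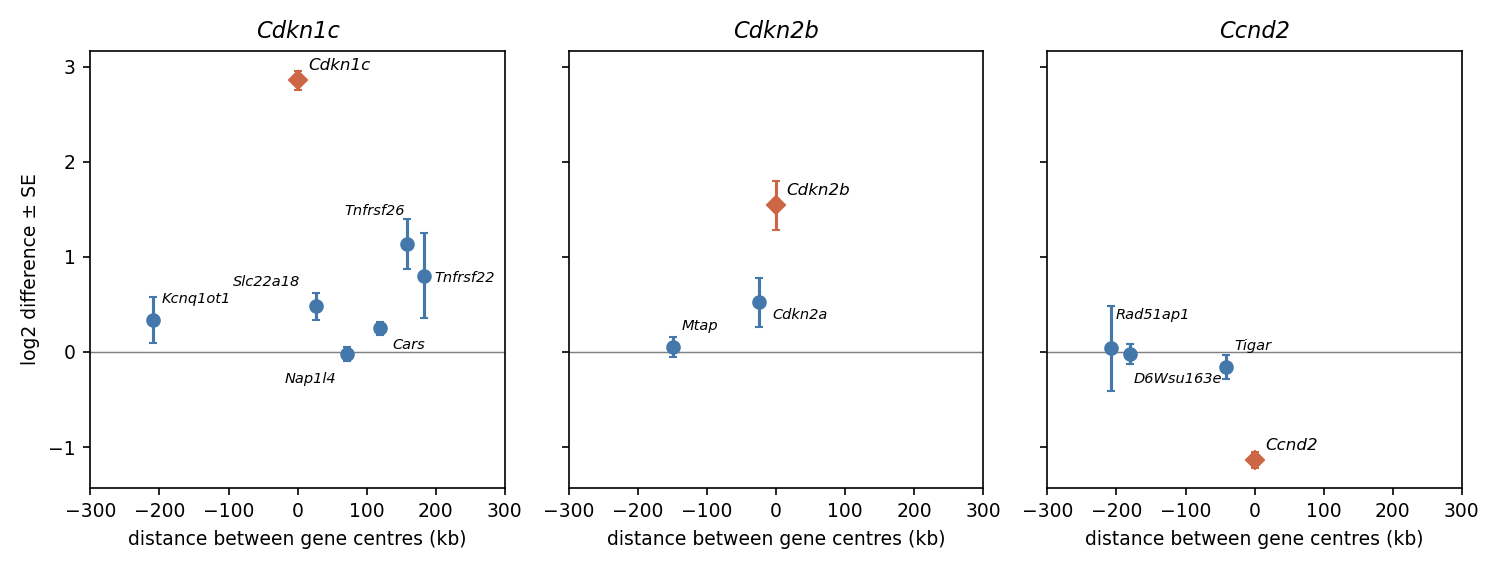
Log2 difference (Reg1-MOs minus Ctrl MO, bars 1 SE) of Cdkn1c, Cdkn2b and Ccnd2 (orange diamonds) and of the measured genes within 200000 bp of each (blue), by distance between gene centres in kb. These 3 have the largest differences of the 10 genes, so nothing is read from their standing apart from their neighbours in size. The largest neighbour value shown is that of Tnfrsf26 at 1.13.

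Among imprinted genes at large, 18 of the 44 listed were measured beside Cdkn1c, and 2 rose and 5 fell, with a median of -0.05. The calls were 38.9% of those measured, against 12.2% of all genes. The list holds mouse genes with parent-of-origin expression, and whether each is imprinted in these macrophages was not measured. Igf2r, the receptor that clears insulin-like growth factor 2, fell by 0.85 (SE 0.09, adjusted p = 0.0021) and the tetraspanin gene Cd81 by 0.70 (SE 0.09, adjusted p = 0.0031). Impact, a regulator of translation, fell by 0.49 (SE 0.10, adjusted p = 0.0225). Dcn, which encodes the matrix proteoglycan decorin and is also in the stromal list, fell by 1.38 (SE 0.29, adjusted p = 0.0237). The Dcn call ended when Ctrl MO replicate 1 or replicate 2 of Reg1-MOs was left out (adjusted p up to 0.0636), and that of Impact without any 1 except Reg1-MOs replicate 2 (up to 0.117). The falls numbered 3 without replicate 1 of either group. The rises numbered 1 without Ctrl MO replicate 2 and 0 without any 1 of the other libraries.

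Among the genes whose pattern over the 4 libraries was most like that of Cdkn1c, of 9333 genes that averaged 50 reads or more, were Itgb7, Slc40a1, Uchl1 and Slc43a3. Likeness was the Euclidean distance between log2 values after each gene was centred on its mean. Over 4 libraries in 2 groups it chiefly picks genes with a group difference of similar size, so no shared regulation is read from it. The integrin chain gene Itgb7 was nearest at 0.20, with 121 and 110 reads against 757 and 686. The iron exporter gene Slc40a1 lay at 0.44, with 243 and 222 reads against 1351 and 1118. Uchl1, a ubiquitin hydrolase gene, lay at 0.58 and the transporter gene Slc43a3 at 0.78.

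Cdkn2b encodes p15, an INK4 inhibitor known to be induced by transforming growth factor beta (chromosome 4, 89306299 to 89311039, minus strand). It had 37 and 61 reads in the controls, against 164 and 112 with Reg1-MOs. Both Reg1-MOs libraries were above both controls, but at these low counts the libraries of 1 group also lay apart, by 0.71 (Ctrl MO) and 0.42 (Reg1-MOs). The log2 difference was 1.54 (SE 0.26), from 1.18 to 1.90 over the settings tried. Its neighbour Cdkn2a, 11646 bp away, which encodes the inhibitor p16 and the p53 activator ARF, had 22 and 18 reads against 29 and 27 and stood at 0.52 (SE 0.26, adjusted p = 0.224). Mtap, an enzyme gene of methionine salvage on the other side of Cdkn2a, stood at 0.05 (SE 0.10, adjusted p = 0.768).

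The 250 bases before the start of Cdkn2b (chr4:89311033-89311282, minus strand) are shown as the promoter of the INK4 gene that differed most. Capitals mark a cAMP response element, TGACGTCA, whose letters 1.79% of all promoter windows held. This element was added to the motifs after the windows were seen, so nothing is read from that share.

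Cdkn2b: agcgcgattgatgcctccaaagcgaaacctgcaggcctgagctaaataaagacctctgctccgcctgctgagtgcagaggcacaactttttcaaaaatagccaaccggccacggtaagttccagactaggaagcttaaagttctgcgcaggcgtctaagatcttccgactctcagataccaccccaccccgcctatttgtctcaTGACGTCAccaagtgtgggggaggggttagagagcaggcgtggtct

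Cdkn2c, encoding p18, is the least abundant of the 10 (chromosome 4, 109660876 to 109667189, minus strand). It had 47 and 40 Ctrl MO reads, set against 44 and 46 with Reg1-MOs, and its log2 difference of 0.09 (SE 0.20) took either sign when a library was left out (-0.02 to 0.21). Cdkn2d, encoding p19, had 317 and 323 reads in the controls, against 296 and 250 with Reg1-MOs (chromosome 9, 21288410 to 21291407, minus strand). Both Reg1-MOs libraries were below both controls, by a log2 difference of -0.19 (SE 0.10; -0.25 to -0.14 over the settings).

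Ccnd1 encodes cyclin D1 (chromosome 7, 144929931 to 144939925, minus strand). It had 166 and 208 Ctrl MO reads, set against 175 and 160 with Reg1-MOs. The groups overlapped at a log2 difference of -0.11 (SE 0.14), which turned to 0.05 without Ctrl MO replicate 2. Ccnd1 shares 1771 bp with LTO1 on the opposite strand, which had a mean of 249.5 reads, so reads in the shared stretch cannot be told apart without the strand setting.

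Ccnd2 encodes cyclin D2, a D cyclin with a known part in the growth of blood cells (chromosome 6, 127125162 to 127152193, minus strand). It had 7004 and 7290 reads in the controls, against 3074 and 3253 with Reg1-MOs. Both Reg1-MOs libraries were below both controls, and the nearest libraries of the groups were 1.00 apart on the log2 scale, against 0.06 between the controls and 0.21 between the Reg1-MOs libraries. The log2 difference was -1.14 (SE 0.08), from -1.24 to -1.03 over the settings tried. Ccnd2 shares 2805 bp with 9330179D12Rik and 994 bp with Gm43126 on the opposite strand. Neither was among the measured genes, so reads in the shared stretches cannot be told apart without the strand setting. In bulk RNA, fewer cells that express a gene and less of its RNA per cell cannot be told apart. Stromal markers were lower in the same libraries (all 10 measured, median -1.50), and their part in this difference was not tested. None of the 3 measured genes within 200000 bp of Ccnd2 passed in limma, nor at an unadjusted p of 0.05; Tigar, whose product lowers glycolysis, stood at -0.16 (SE 0.13, adjusted p = 0.463).

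Ccnd3 encodes cyclin D3 (chromosome 17, 47505051 to 47599691, plus strand). It had 845 and 802 Ctrl MO reads, set against 520 and 377 with Reg1-MOs. Both Reg1-MOs libraries were below both controls and differed from each other by 0.34, against 0.07 between the controls. The log2 difference was -0.85 (SE 0.12), from -1.02 to -0.69 over the settings. As for Ccnd2, the part of the lower stromal markers in this difference was not tested. Ccnd3 shares 361 bp at its end with Bysl on the opposite strand, a ribosome assembly gene that stood at -0.12 (SE 0.16, adjusted p = 0.650). The stretch before the upstream start of Ccnd3 (chr17:47504801-47505050, plus strand) is shown as the promoter of a D cyclin gene that was lower. Capitals mark, in this order, a forkhead site (GTAAACA, read on the opposite strand; 3.65% of all windows), an antioxidant response element core (TGACNNNGC; 12.4%) and, at both later places, a GC box (GGGCGG, read on the opposite strand; 35.7%).

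Ccnd3: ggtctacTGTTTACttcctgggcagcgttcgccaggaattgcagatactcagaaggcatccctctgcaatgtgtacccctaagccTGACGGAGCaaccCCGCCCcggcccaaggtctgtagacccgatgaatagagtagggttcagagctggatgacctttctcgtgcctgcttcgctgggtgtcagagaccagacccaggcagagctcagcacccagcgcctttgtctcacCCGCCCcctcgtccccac

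Most like Ccnd2 in pattern, by the same measure and with the same limit, were Cacna1d, Nox1, Kif4, Cald1 and Htra4, at distances of 0.08 to 0.12. Cacna1d, a calcium channel gene, had 594 and 653 reads against 278 and 278. Nox1, an NADPH oxidase gene, had 707 and 763 against 335 and 352, and the mitotic kinesin gene Kif4 had 161 and 157 against 64 and 68. Cald1 encodes the actin-binding protein caldesmon and Htra4 a secreted protease.

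Cdk4 encodes the kinase that D cyclins activate (chromosome 10, 127063534 to 127067920, plus strand). It had 430 and 469 reads in the controls, against 554 and 488 with Reg1-MOs. Both Reg1-MOs libraries were above both controls after scaling, by a log2 difference of 0.25 (SE 0.09; 0.19 to 0.31 over the settings). Cdk4 shares 641 bp with the tetraspanin gene Tspan31 on the opposite strand, which had a mean of 1575.5 reads and stood at 0.08 (SE 0.07, adjusted p = 0.492). Cdk6, the partner kinase of D cyclins, had 920 and 991 reads against 958 and 1212 and stood at 0.21 (SE 0.14, adjusted p = 0.365; -0.02 without Reg1-MOs replicate 2).

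Cdk4 is a known target of the growth factor-induced regulator MYC, which binds the E-box CACGTG. The 250 bases before its start (chr10:127063285-127063534, plus strand) hold this E-box 4 times, and 7.15% of all windows hold it at least 1 time. Capitals also mark the antioxidant response element core TGACNNNGC near the beginning and, read on the opposite strand, between the first E-boxes, and a GC box on the opposite strand.

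Cdk4: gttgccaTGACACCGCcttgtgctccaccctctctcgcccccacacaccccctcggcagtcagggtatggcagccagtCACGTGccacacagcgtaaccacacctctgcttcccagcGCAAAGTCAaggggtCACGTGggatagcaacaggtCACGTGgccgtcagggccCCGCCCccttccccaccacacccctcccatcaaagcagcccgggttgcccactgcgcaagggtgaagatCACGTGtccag

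Of the 10 genes, 7 had a window in the RefSeq table on GRCm38.p6, and Cdkn1a, Cdkn2c and Ccnd3 had 2 each. A GC box was in 8 of these 10 windows, the antioxidant response element core in 4, the SMAD element CAGACA in 2 (21.04% of all windows), and the E-box in 2. None held an E2F site (TTTGGCGC, TTTCGCGC or TTTCCCGC; 1.84% of all windows), the AP-1 site TGACTCA (5.20%) or the TATA box TATAAA (13.6%). Both strands were read, and these matches describe letters, not binding.

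Levels of different genes were compared as scaled reads per kb of exon, where the deposited log2 values were taken out of the log scale and divided by the length of all annotated exons. This length ran from 1390 bp for Cdkn2b to 9409 bp for Ccnd2. Which exons these cells used was not measured, so the order, ratios and shares between genes below depend on this choice of length. With Ctrl MO, Cdkn1a stood at 1597 ± 58.5 (SD, n = 2), above 99.7% of all genes. Ccnd2 followed at 39.8 ± 1.15, Cdkn2d at 10.7 ± 0.148, Cdkn1c at 8.08 ± 1.03, Cdk4 at 7.26 ± 0.450 and Cdkn1b at 7.06 ± 0.485. Ccnd3 at 4.92 ± 0.179, Ccnd1 at 2.09 ± 0.332, Cdkn2b at 1.87 ± 0.641 and Cdkn2c at 0.859 ± 0.0961 were lowest. Of the neighbours in this order, Cdkn1c and Cdk4, Cdk4 and Cdkn1b, and Ccnd1 and Cdkn2b had libraries that overlapped.

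With Reg1-MOs the order differed at Cdkn1c and Cdkn2b above all. Cdkn1c stood in place 2 and not 4, at 58.3 ± 0.668 (SD, n = 2), past Ccnd2 at 18.2 ± 1.84. Cdkn2b stood in place 7 and not 9, at 5.33 ± 1.10, past Ccnd3 at 2.74 ± 0.453. Cdkn1a was again first at 1595 ± 42.5 and Cdkn2c last at 0.915 ± 0.0844. In this order only Cdkn1b, at 6.47 ± 0.539, and Cdkn2b overlapped as neighbours.

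**Figure D3:**
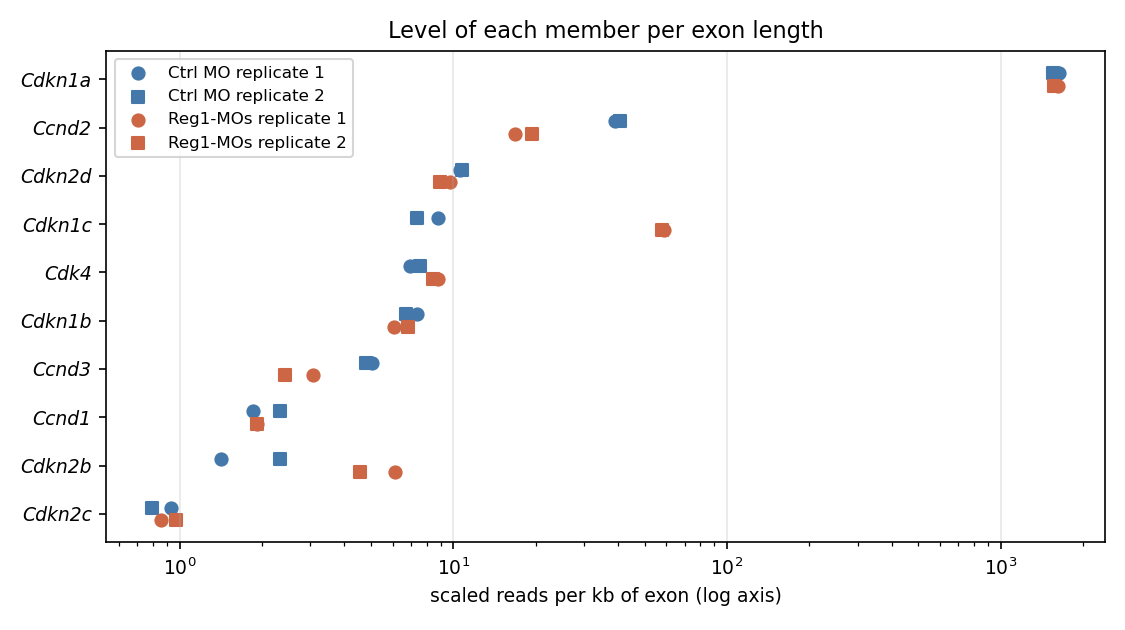
Scaled reads per kb of exon (log axis) of each of the 10 genes in each library, ordered by the Ctrl MO mean (blue, Ctrl MO; orange, Reg1-MOs). Cdkn1a lies far above the others in all 4 libraries, at a mean of 1597 and 1595, and the mean of Cdkn1c is 8.08 in the controls, against 58.3 with Reg1-MOs.

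Within families, the make-up differed between the groups. Per kb, Ccnd2 was 4.43 and 5.53 times as abundant as Cdkn1c in the Ctrl MO libraries, whereas Cdkn1c was 3.48 and 2.97 times as abundant as Ccnd2 in the Reg1-MOs libraries. Cdkn1c made up 0.532% and 0.468% of the Cip/Kip sum in the controls, against 3.48% and 3.55% with Reg1-MOs, and Cdkn1a made up at least 96.0% in every library. The Cip/Kip sum overlapped between the groups, at 1654 and 1570 against 1690 and 1629 scaled reads per kb. The INK4 sum was 12.9 and 13.9 against 16.7 and 14.5, and the share of Cdkn2b in it was 10.95% and 16.7% against 36.6% and 31.4%. The D cyclin sum was 45.9 and 47.8 against 21.8 and 23.8, a 2.05-fold lower mean, and Ccnd2 held 77.2% to 85.1% of it in each library. In this sum too, fewer expressing cells and less RNA per cell cannot be told apart.

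**Figure D4:**
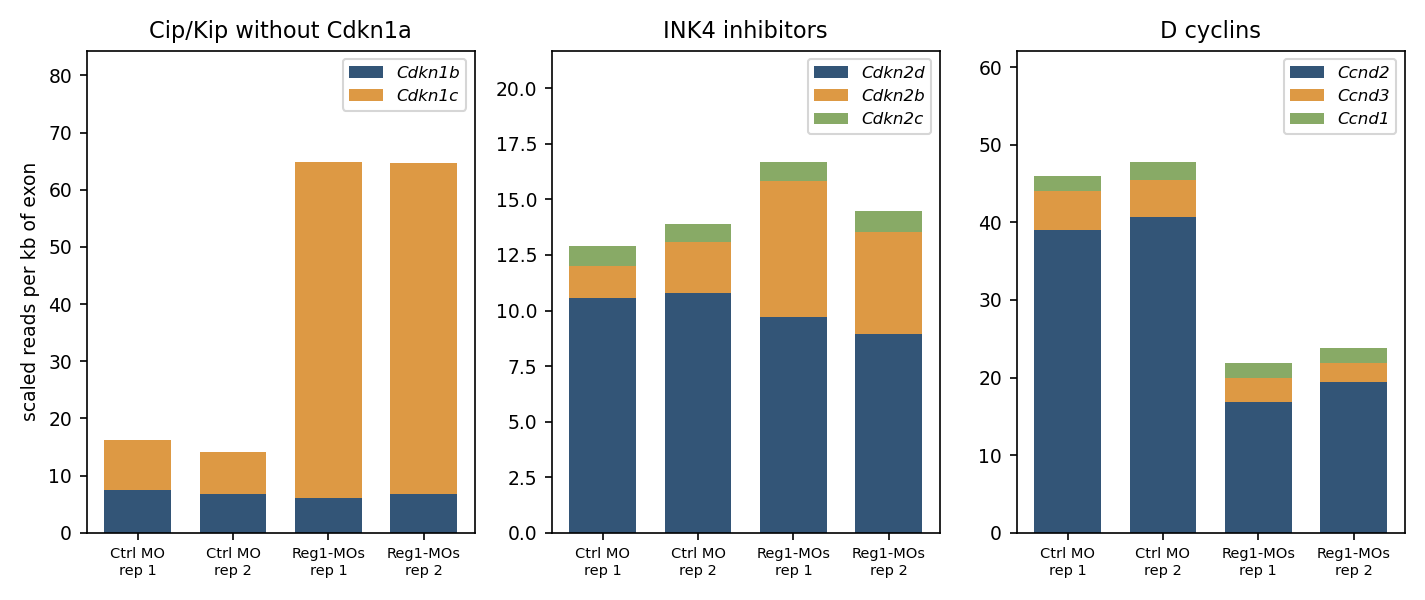
Scaled reads per kb of exon in each library, stacked by gene, for the Cip/Kip inhibitors other than Cdkn1a, the INK4 inhibitors and the D cyclins; each panel has its own axis from 0. Cdkn1b and Cdkn1c together stand at 16.2 and 14.1 in the controls, against 64.9 and 64.7 with Reg1-MOs, and the D cyclin sum is lower in both Reg1-MOs libraries.

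The G1/S list held genes of CDKs, cyclin E1, pocket proteins and E2F factors, and of some of their regulators, such as Cdkn2a and Wee1. Of its 21 measured genes, 2 rose and 1 fell (limma, adjusted p under 0.05), with a median of -0.03. That is 14.3% of the list, near the 12.2% of all genes called. The kinase gene Wee1, whose product restrains CDK1, rose by 0.41 (SE 0.10, adjusted p = 0.0387), and Ccnh, the cyclin of the CDK-activating kinase, rose by 0.41 (SE 0.11, adjusted p = 0.0485). E2f8, an E2F repressor gene, fell by 0.45 (SE 0.09, adjusted p = 0.0177), with 586 and 611 reads against 436 and 416. The calls of Wee1 and Ccnh ended without any 1 of the 4 libraries (adjusted p up to 0.163 and 0.278), and that of E2f8 without any 1 except Reg1-MOs replicate 2 (up to 0.141). Without Reg1-MOs replicate 2 there were 0 rises and 2 falls.

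The groups did not overlap for 13 of the 21, against 58.9% of all genes. Cdk2, the kinase that Cip/Kip proteins inhibit, had 94 and 103 reads against 129 and 128 and stood at 0.42 (SE 0.14, adjusted p = 0.0904). Its activating phosphatase gene Cdc25a stood at -0.36 (SE 0.10, adjusted p = 0.0650) and Ccne1, encoding cyclin E1, at 0.25 (SE 0.18, adjusted p = 0.397). Among pocket protein genes Rbl1 stood at -0.37 (SE 0.13, adjusted p = 0.107), Rb1 at 0.15 (SE 0.12, adjusted p = 0.464) and Rbl2 at -0.08 (SE 0.12, adjusted p = 0.694). Rbl1 stood at -0.58 without Reg1-MOs replicate 2 and at -0.15 without Reg1-MOs replicate 1. The activator genes E2f1 and E2f3 stood at -0.04 and -0.09.

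Of 22 measured genes of D cyclin and inhibitor turnover, Cul4a, a ubiquitin ligase scaffold gene, fell by 0.29 (SE 0.07, adjusted p = 0.0391). None rose in limma, so 4.5% of the list was called, against 12.2% of all genes. At an unadjusted p of 0.05, 1 was higher and 3 were lower, where 13.6% of all genes were higher and 15.7% lower. Fbxw7, the cyclin E ubiquitin ligase subunit gene, was the higher 1, at 0.42 (SE 0.11, adjusted p = 0.0535). Ddb1, an adaptor of CUL4 ligases, stood at -0.22 (SE 0.06, adjusted p = 0.0572), and Cks1b, a cofactor for p27 destruction, had 53 and 29 reads against 21 and 22 and stood at -0.81 (SE 0.32, adjusted p = 0.140). With 1 library left out, Cks1b ran from -1.24 (without Ctrl MO replicate 2) to -0.38 (without Ctrl MO replicate 1). The Cul4a call ended without any 1 of the libraries.

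Among 40 measured transcription factors and other transcriptional regulators, Polycomb proteins included, known to act on 1 or more of these genes, 4 rose and 2 fell, with a median of -0.01. That is 15.0% of the list, near the 12.2% of all genes called. The zinc finger factor Klf4, which can activate Cdkn1a, rose by 1.30 (SE 0.11, adjusted p = 0.0012). The HLH inhibitor Id2 rose by 0.60 (SE 0.07, adjusted p = 0.0024), Cebpa, a myeloid factor that arrests growth, by 0.56 (SE 0.11, adjusted p = 0.0187), and Trp53, encoding p53, by 0.41 (SE 0.09, adjusted p = 0.0257). Maf and Myc were the falls, at -0.29 (adjusted p = 0.0305) and -0.46 (adjusted p = 0.0436), and these 2 were named after their values were seen. The calls of Cebpa (adjusted p up to 0.0857) and Trp53 (up to 0.170) ended, and 0 falls were left, when any 1 library except Reg1-MOs replicate 2 was dropped. The rises numbered 2 without replicate 1 of either group and 3 without Ctrl MO replicate 2.

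On the route from growth factors to D cyclins, 1 of 26 measured genes rose and 5 fell, with a median of -0.0030. Together these were 23.1% of the list, against 12.2% of all genes called. Tgfbr1, a receptor chain for transforming growth factor beta, rose by 0.59 (SE 0.11, adjusted p = 0.0144). The phosphoinositide kinase gene Pik3cd fell by 0.33 (SE 0.06, adjusted p = 0.0154), the kinase gene Akt2 by 0.35 (SE 0.07, adjusted p = 0.0177) and the GTPase gene Nras by 0.27 (SE 0.06, adjusted p = 0.0312). The other falls, named after their values were seen, were those of Ctnnb1, encoding beta-catenin (-0.27, adjusted p = 0.0329), and of the growth factor gene Csf1 (-0.26, adjusted p = 0.0371). Without Ctrl MO replicate 1 there was 1 fall, and 0 were left without Ctrl MO replicate 2 or replicate 1 of Reg1-MOs, while the Tgfbr1 call ended without Reg1-MOs replicate 2 (adjusted p = 0.0501).

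Genes of S, G2 and M phase were measured for 28 of 28, and 3 fell, with a median of -0.30 and 20 of 28 values below 0. Over all genes 54.4% of values were below 0, and 12.2% of genes were called, against 10.7% of this list. None rose in limma, and at an unadjusted p of 0.05 there were 0 higher and 10 lower of the 28, against 13.6% and 15.7% of all genes. Ccnb2, encoding cyclin B2, had 70 and 69 reads against 27 and 35 and fell by 1.12 (SE 0.22, adjusted p = 0.0194). Top2a, a DNA topoisomerase gene, had 244 and 262 against 142 and 162 and fell by 0.70 (SE 0.14, adjusted p = 0.0194). Birc5, encoding survivin, had only 25 and 28 reads against 12 and 8 and fell by 1.35 (SE 0.32, adjusted p = 0.0340). The thymidine kinase gene Tk1, with 27 and 36 reads against 9 and 15, stood at -1.35 (SE 0.36, adjusted p = 0.0519). Without Reg1-MOs replicate 1 there were 0 falls, and without Ctrl MO replicate 2 there were 2. The Birc5 call ended without any 1 of the 4 libraries (adjusted p up to 0.164), and Tk1 passed when Ctrl MO replicate 1 or replicate 2 of Reg1-MOs was left out (down to 0.0285). Stromal markers were lower in the same libraries, at a median of -1.50, and their part in these falls was not tested.

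**Figure D5:**
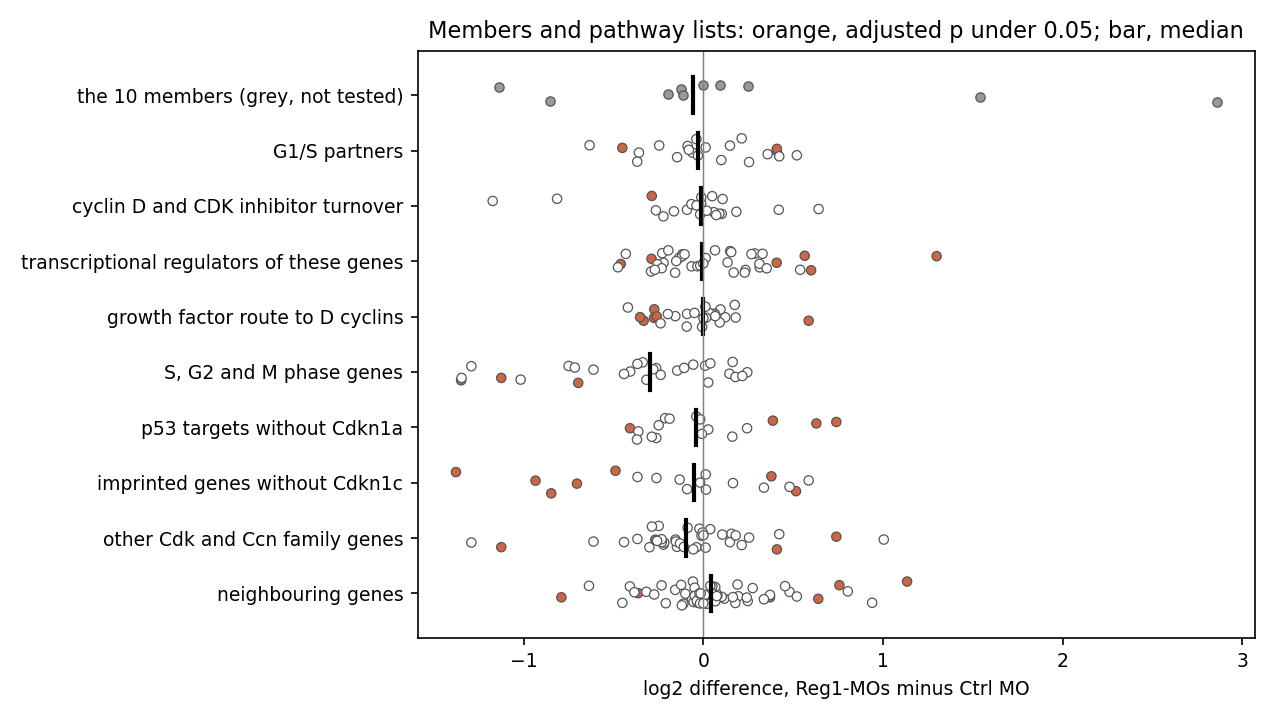
Log2 difference (Reg1-MOs minus Ctrl MO) of the 10 genes in grey and of each gene of the other lists, with genes past an adjusted p of 0.05 in limma in orange and a bar at each list's median. The S, G2 and M phase list has the lowest median, -0.30. The 2 inhibitors at 1.54 and 2.86 lie beyond every listed gene, but the 10 genes were chosen with this contrast known, so nothing is read from this.

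Of 38 other measured cyclin and CDK family genes, 2 rose and 2 fell, with a median of -0.10. That is 10.5% of the list, near the 12.2% of all genes called. Cdk18, a kinase of the PCTAIRE group, had 802 and 856 reads against 1451 and 1251 and rose by 0.74 (SE 0.08, adjusted p = 0.0022). Ccnl2, a cyclin of RNA splicing, fell by 0.27 (SE 0.07, adjusted p = 0.0392), beside Ccnb2 and Ccnh above. The Cdk18 call held with any 1 library left out (adjusted p up to 0.0357), whereas that of Ccnl2 ended without any 1 (up to 0.361). Rises numbered 1 without any 1 library other than Ctrl MO replicate 1. Falls numbered 1 without either control and 0 without Reg1-MOs replicate 1.

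Across all 10 genes, 60 measured genes lay within 200000 bp, of which 4 rose and 2 fell, with a median of 0.04. That is 10.0% of these neighbours, near the 12.2% of all genes called. Crebl2, a leucine zipper gene 61470 bp from Cdkn1b, fell by 0.79 (SE 0.09, adjusted p = 0.0027), with 1433 and 1430 reads against 781 and 831. Bc1, a small noncoding RNA gene 15294 bp from Ccnd1, rose by 0.76 (SE 0.09, adjusted p = 0.0031), and Pip4k2c, a lipid kinase gene near Cdk4, by 0.37 (SE 0.08, adjusted p = 0.0265). The Pip4k2c call ended without any 1 library (adjusted p up to 0.247). Rises numbered 2 without replicate 2 of either group and 1 without Reg1-MOs replicate 1, and falls 1 without either control or Reg1-MOs replicate 1.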

How the data were processed

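RNA of mouse macrophages was measured in 4 libraries, 2 per group, as polyA-selected, strand-marked libraries, per the labels' protocols. The submitters' processing notes name cutadapt, FastQC, HISAT2 1.6.3 and mm10; the counter, its strand setting and the scaling have no entry in the sources used here. Values were deposited by the authors on the log2 scale and fit log2 of reads plus 0.5 times 1 constant per library, and 100% of values came out as whole reads within 0.01. These reads are printed, but tests used the deposited log2 values. Genes listed in the table numbered 11111, with no further filter on low values.

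Groups were compared with limma 3.58.1 in R 4.3.3 (moderated test with a mean-variance trend, two-sided, Benjamini-Hochberg over all genes, threshold 0.05, group as the only term). This fit was checked on simulated data with 1 spread shared by all libraries and log2 changes of 1 or 2. Smaller changes and groups of unequal spread were not simulated. The Reg1-MOs libraries differed from each other more (chi-square per degree of freedom 15.1) than the Ctrl MO libraries did (4.22). Differences are Reg1-MOs minus Ctrl MO. The members and lists were chosen with earlier results of these data known. Named genes were all members, the 4 smallest p-values of each list, any G1/S gene, the neighbours of Cdkn1c, and the 5 genes nearest in pattern to Cdkn1c and Ccnd2. Some genes that this rule names are not reported here. Positions come from GENCODE M21 and promoter windows from RefSeq (GRCm38.p6); the cAMP response element and the p53 element were added to the motifs after the windows were seen. Alternatives were no trend, quantile normalization, equal totals, an offset of 8 reads, a mean of at least 50 reads, a replicate block, a distance of 100000 bp for neighbours, and each library left out.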

Additional observations from a re-analysis of the deposited data

How the results depend on the processing

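With 2 libraries a group, calls rest on few libraries and genes with few reads have wide errors; the depth behind Cdkn2b and Cdkn2c was under 200 reads a library. Among the 10 genes, the values of Cdkn1a, Cdkn2c and Ccnd1 took either sign over the alternatives; Cdkn2b ran from 1.18 to 1.90, Ccnd3 from -1.02 to -0.69, Ccnd2 from -1.24 to -1.03 and Cdkn1c from 2.73 to 2.99, each at its ends farther from the reported value than its SE. Of 672 alternative values of the other named genes, 567 kept their side of the threshold, 84 were no longer called and 21 were newly called, and 0 turned sign while called. The cause of the changes below was not tested. Leaving out 1 library at a time gave 249 to 530 genes higher and 258 to 860 lower in the whole table. Over the same 4 fits, calls ranged as follows: G1/S genes 0 to 0 higher and 0 to 2 lower, turnover genes 0 to 1 higher and 0 to 1 lower, transcriptional regulators 2 to 4 higher and 0 to 2 lower, and growth factor route genes 0 to 1 higher and 0 to 5 lower. For S, G2 and M phase genes 0 to 3 were lower, for p53 targets 0 to 2 were lower, for imprinted genes 0 to 1 were higher and 3 to 5 lower, for other cyclin and CDK genes 1 to 2 were higher and 0 to 2 lower, and for neighbouring genes 1 to 3 were higher and 1 to 3 lower. Without the mean-variance trend, 195 genes were higher and 182 lower in the whole table. In that fit 0 G1/S genes were higher and 0 lower, 0 turnover genes lower, 0 transcriptional regulators lower, 0 growth factor route genes higher and 0 lower, 1 S, G2 and M phase gene lower and 0 p53 targets lower. It also gave 1 imprinted gene higher and 2 lower, 1 other cyclin or CDK gene higher and 0 lower, and 1 neighbouring gene higher and 1 lower. With equal totals, 1 turnover gene was higher and 0 lower, 1 transcriptional regulator was lower and 1 other cyclin or CDK gene was lower. Quantile normalization called 1 turnover gene higher, and within 100000 bp there was 1 neighbouring gene higher. The labels do not say that replicate numbers pair the libraries, so the numbers were not taken as pairs. The deviations of same-numbered libraries from their group means had a correlation of 0.0958 across genes. With 2 libraries a group, this 1 correlation cannot decide whether they were paired. A fit with the replicate number as a block called 1532 genes higher and 1891 lower. Under that replicate block, calls were 4 higher and 3 lower for G1/S genes, 1 and 3 for turnover genes, 13 and 10 for transcriptional regulators, 2 and 9 for growth factor route genes, 6 and 10 for other cyclin and CDK genes and 10 and 6 for neighbouring genes, with 8 S, G2 and M phase genes and 6 p53 targets lower.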
